A study of Mus musculus with 7 samples.

Results

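The genes described here encode the nuclear part of oxidative phosphorylation in mouse cells. They were chosen by symbol: Nduf followed by a, b, c, s or v and a number, Sdha to Sdhd, Cyc1, Cycs, and symbols that begin with Uqcr, Cox4 to Cox8 or Atp5, with pseudogene symbols left out. The rule found 86 of the 24421 gene rows in the count table. By complex these were 35 genes of complex I, 4 of complex II, 10 of complex III, 20 of complex IV and 17 of complex V. Cycs, the soluble electron carrier, was counted with complex III. Ndufa4 and its paralogue Ndufa4l2 were counted with complex IV, where the Ndufa4 protein is known to reside. Atp5s and Atp5sl were kept with complex V by symbol, although neither is a subunit of ATP synthase: the first is known as coupling factor B, and the second is known for a part in building complex I.

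Complexes I and II feed electrons from NADH and from succinate into ubiquinone, complex III passes them on to cytochrome c, and complex IV hands them to oxygen. Complexes I, III and IV pump protons while doing so, and complex V, ATP synthase, lets the protons flow back to make ATP. Complex II is built from nuclear genes alone, whereas the other complexes also hold subunits made inside the mitochondrion, whose genes were not analysed here. Eosinophils, granulocytes of type 2 immunity, are known to respire through mitochondria as well as to use glycolysis.

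RNA was sequenced from cells labelled eosinophils, sorted out of digested mouse muscle at day 3 after ntx, a term the labels leave unexplained. The sort kept CD45+ SiglecF+ cells within a CD11b gate, which the labels spell CD11bing, and removed cells positive for NK1, Ly6G or CD3e. There were 3 libraries from mice labelled WT and 4 from mice labelled IL5-Tg. The labels give no age, strain or promoter of the transgene, and do not say whether each library came from its own mouse, so p-values measure the spread between libraries. The series' title names mdx mice, a model of Duchenne muscular dystrophy, but no sample label names that allele. Library numbers (WT 1 to WT 3, IL5-Tg 1 to IL5-Tg 4) follow accession order and are names only.

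Reads assigned to genes numbered 9665093 to 17447106 per library. Il5 stood at 338 to 447 CPM (counts scaled to library size, with TMM factors) in the 4 IL5-Tg libraries, while WT 1 had 23 Il5 reads and WT 2 and WT 3 had 0, which by a floor of 3 counts allows up to 0.317 and 0.284 CPM. Siglecf, the sorting marker, was detected in all libraries at 251 to 857 CPM, and Cd3e had no read outside IL5-Tg 1, which had 3. Transcripts of other cells were also present, and WT 3 held the least of those of fibroblasts, muscle fibres and macrophages. The 9 fibroblast markers summed to 385 CPM in WT 3 and to 2307 to 5006 CPM in the other libraries, the 16 muscle fibre markers to 161 CPM against 484 to 1675 CPM, and the 12 macrophage and monocyte markers to 5682 CPM against 6284 to 9220 CPM. WT libraries resembled each other less than IL5-Tg libraries did, with Pearson correlations of log2 CPM across genes of 0.861 to 0.920 among WT and 0.959 to 0.973 among IL5-Tg.

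Most of the nuclear oxidative phosphorylation genes were read in all libraries, and none passed the test between genotypes. Of the 86 genes, 80 had a count in every library, 3 had 0 counts in some and 3 had 0 counts in all 7, and 83 had enough reads to be tested. The edgeR quasi-likelihood test with Benjamini-Hochberg adjustment called 0 of 83 at an adjusted p under 0.05, where it called 51 of the 12428 genes tested, or 0.410%. By direction the share called over all genes was 0.338% higher in IL5-Tg and 0.0724% lower. At an unadjusted p under 0.05 the count was again 0 of 83, against 9.04% of all genes, and the lowest unadjusted p was 0.0861, for Uqcr10. DESeq2 called 0 members (1.81% of all genes) and had 0 at an unadjusted p under 0.05 (9.41%). Limma-voom called 0 (0.177%) and had 1 at an unadjusted p under 0.05, Cox6c (8.13%).

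For 64 of the 83 (77.1%) the whole 95% interval of the log2 fold change lay inside a 2-fold change in either direction, which held for 29.3% of all genes tested. This count depended on the model: with the first digits of the sample titles as a block it was 22 of 83 (26.5%, against 15.3% of all genes). In that fit WT 3, IL5-Tg 1 and IL5-Tg 2 share no block with the other genotype. The contrast then rests on WT 1, WT 2, IL5-Tg 3 and IL5-Tg 4. The median standard error of the log2 fold change was 0.27 over the members and 0.40 over all genes. Without the block, the interval lay inside 2-fold in complex II for 4 of 4 genes, in complex I for 29 of 34, in complex III for 8 of 10, in complex V for 13 of 17 and in complex IV for 10 of 18. Of the 19 genes outside the bound, Cox4i2, Cox6a2, Cox6b2, Cox8b, Ndufa4l2, Atp5s and Ndufb4 had a mean under 10 CPM, and the plot of fold changes with their intervals shows them as the longest bars. Another 6 (Cox7a1, Atp5sl, Cycs, Atp5g2, Ndufa12 and Ndufc1) had means of 10.6 to 29.6 CPM. The other 6 were well read, at 70.1 to 172 CPM: Cox7b, Uqcr10, Atp5k, Cox6c, Ndufv1 and Ndufa2.

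**Figure D1:**
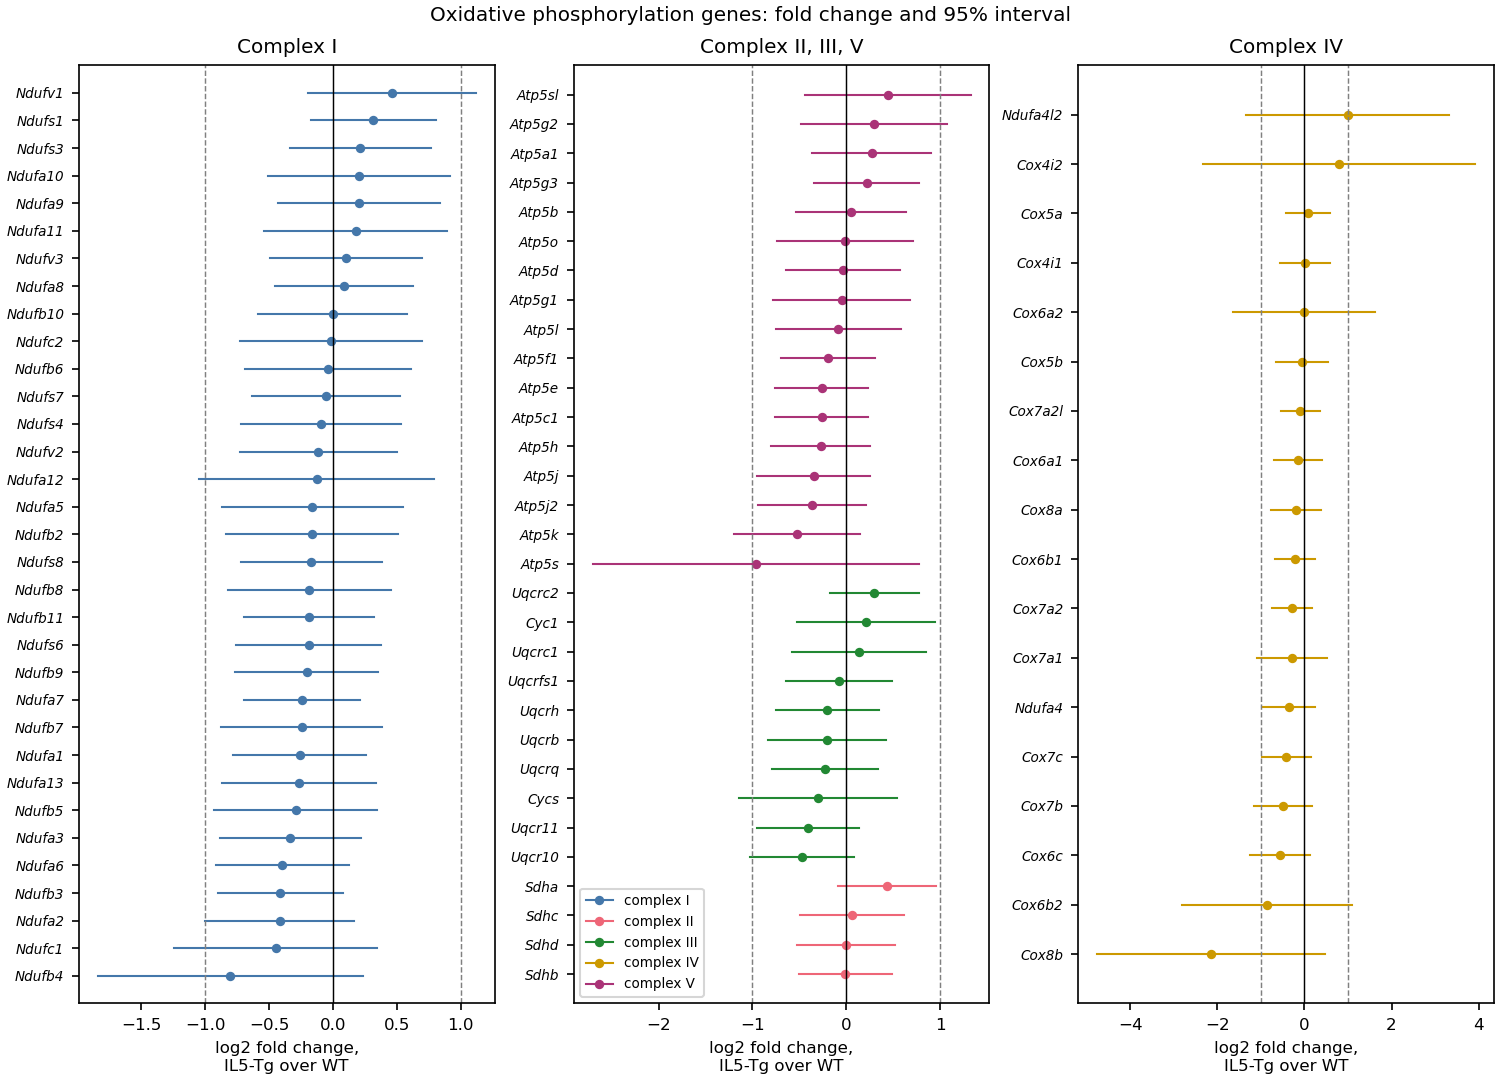
Log2 fold change (IL5-Tg over WT) of 82 of the 83 tested genes, with points for the estimate, bars for the 95% interval and dashed lines at a 2-fold change, in panels for complex I, complexes II, III and V, and complex IV, whose axes differ in range. All bars shown cross 0, and most stay between the dashed lines.

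Most estimates were negative, but by small amounts. Over the 83 genes the median log2 fold change was -0.16, with 24 positive and 59 negative (28.9% positive), while over all genes tested the median was 0.03 and 52.1% were positive. By complex the medians were -0.16 for complex I, 0.03 for complex II, -0.20 for complex III, -0.20 for complex IV and -0.08 for complex V. The direction of the median rested on WT 2: without that library it was 0.04, and without WT 3 it was -0.29. It was also 0.04, beside 0.13 over all genes, once trends with GC content and transcript length had been removed from each library, a correction that moved the median of all genes from 0.03 to 0.13. With only the trends with GC content removed, the members' median was -0.13, beside 0.09 over all genes.

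The share of each library's gene-assigned reads that fell on the 86 genes was 1.29% in WT 1, 1.60% in WT 2 and 0.945% in WT 3. It was 1.29%, 1.13%, 1.31% and 1.21% in IL5-Tg 1 to 4. The WT mean was 1.28% ± 0.328 (SD, n = 3), and the IL5-Tg mean was 1.24% ± 0.0850 (SD, n = 4). The WT libraries therefore held the highest and the lowest share, and the IL5-Tg values fell between them. Complex V took 0.317% to 0.552% of reads in WT and 0.387% to 0.460% in IL5-Tg, the largest part in every library. Complex I followed with 0.273% to 0.483% in WT and 0.324% to 0.371% in IL5-Tg, and complex II took the least, 0.0482% to 0.0681% in WT and 0.0631% to 0.0728% in IL5-Tg. In bulk samples such as these, fewer cells of a type and less RNA per cell cannot be told apart.

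**Figure D2:**
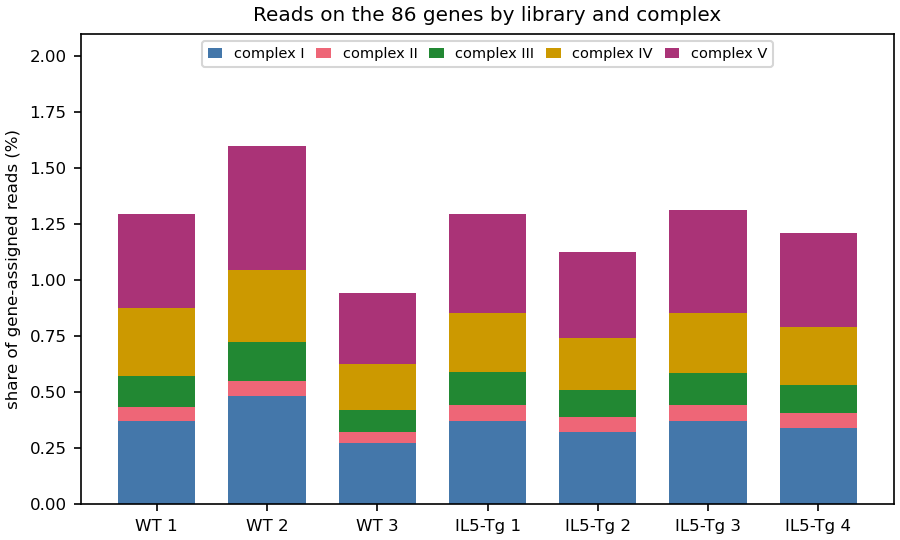
Share of gene-assigned reads (%) on the 86 genes in each library, stacked by complex, with 1 bar per library. WT 2 is the tallest bar at 1.60% and WT 3 the shortest at 0.945%, and the 4 IL5-Tg bars lie between 1.13% and 1.31%.

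The same spread between WT libraries was seen gene by gene. WT 2 was the highest of the 7 libraries for 49 of the 83 genes (59.0%, against 17.6% of all genes tested), and WT 3 was the lowest for 34 (41.0%, against 35.1%). For 24 genes (28.9%, against 11.3%) WT 2 lay above and WT 3 below every IL5-Tg library. As the deviation of log2(CPM + 1) from each gene's mean, the median over the members was 0.03 in WT 1, 0.42 in WT 2 and -0.29 in WT 3. In IL5-Tg 1 to 4 it was 0.07, -0.02, 0.02 and -0.13. The cytosolic ribosomal protein genes had medians of 0.16, 0.59 and -0.38 in WT 1 to 3, and the mitochondrial ribosomal protein genes had 0.10, 0.41 and -0.60. The part that library composition, RNA quality or other cells have in this order was not tested.

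**Figure D3:**
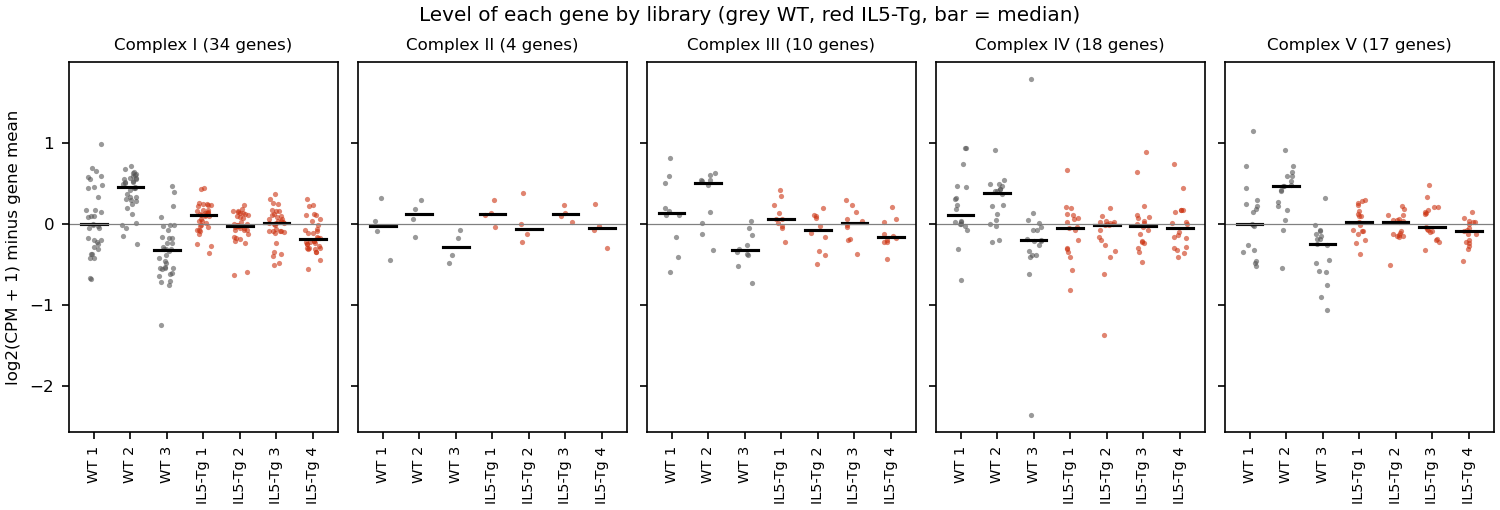
Deviation of log2(CPM + 1) from the gene's mean over the 7 libraries, with 1 point per tested gene, a panel per complex, WT in grey, IL5-Tg in red and a bar for the median. In all 5 panels the bar is highest in WT 2 and lowest in WT 3, and the IL5-Tg bars stay between -0.19 and 0.13. In complex II the bar of WT 2 (0.127) is barely above that of IL5-Tg 1 (0.125).

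Groups that do not overlap were found for 7 of the 83 genes (8.43%), close to the 9.36% of all genes tested. IL5-Tg lay above WT for 2 genes (2.41%, against 4.76%), Ndufs1 and Uqcrc2. It lay below for 5 (6.02%, against 4.60%), Ndufa6, Ndufa7, Ndufb3, Cox7a2 and Atp5c1. None of the 7 passed the test, and the largest of their log2 fold changes in size was -0.41, for Ndufb3.

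Promoter sequences were examined because these genes are known to be controlled together by the factors NRF1, GABPA, YY1 and SP1. RefSeq windows (GRCm38.p6) from 250 bases before to 50 bases after the start were matched for 70 of the 86 genes, giving 76 windows of 300 bases with a median GC content of 57.5%, against 52.7% over all 32851 windows and 56.3% over the 21263 windows of protein-coding genes. The short cores of these factors were searched on either strand. The NRF1 core GCGCATGC was in 14.5% of member windows, 2.71% of all windows and 3.52% of protein-coding windows. The ETS core CCGGAAG, the family of GABPA, was in 21.1%, 8.86% and 11.6%, and the YY1 core AAGATGGC in 15.8%, 2.75% and 3.05%. Of the 12 member windows with the YY1 core, only 1 of Atp5j and 1 of Atp5sl held it wholly before the start. In the rest the match lay in, or reached into, the 50 bases after the start. The SP1 core GGGCGG was in 39.5%, 35.7% and 46.2%, so it was more common in protein-coding windows in general than in those of the members. The windows were not matched on GC content, and a match is a run of letters, not a measured binding site.

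The following stretches show what such matches look like in at least 1 gene of each complex. They were picked after the matches were seen, lie before the RefSeq start outside annotated exons, read 5′ to 3′ on the gene's strand, and carry the matched cores in capitals. Ndufa6, for a complex I subunit, lies on chr15:82354323-82354522 (minus) with 1 NRF1 core; Sdhb, for the iron-sulfur subunit of complex II, on chr4:140961021-140961202 (plus) with 3 SP1 cores; Cycs, cytochrome c, on chr6:50566570-50566642 (minus) with 1 NRF1 core.
Ndufa6: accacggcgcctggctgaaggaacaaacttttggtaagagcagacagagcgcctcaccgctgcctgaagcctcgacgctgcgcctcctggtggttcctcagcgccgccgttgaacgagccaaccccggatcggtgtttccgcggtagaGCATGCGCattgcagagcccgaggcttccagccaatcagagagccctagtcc
Sdhb: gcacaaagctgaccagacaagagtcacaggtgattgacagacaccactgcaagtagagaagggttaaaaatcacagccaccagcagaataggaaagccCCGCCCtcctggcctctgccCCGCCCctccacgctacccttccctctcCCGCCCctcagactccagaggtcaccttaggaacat
Cycs: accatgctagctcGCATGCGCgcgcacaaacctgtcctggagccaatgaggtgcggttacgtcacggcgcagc
Uqcrh, the hinge protein of complex III, lies on chr4:116075072-116075268 (minus) with 1 ETS core; Cox6a1, of complex IV, on chr5:115348982-115349129 (minus) with 2 overlapping NRF1 cores, 1 on each strand, and 2 SP1 cores; Atp5e, the epsilon subunit of the ATP synthase head, on chr2:174464106-174464305 (minus) with 1 ETS and 2 SP1 cores.
Uqcrh: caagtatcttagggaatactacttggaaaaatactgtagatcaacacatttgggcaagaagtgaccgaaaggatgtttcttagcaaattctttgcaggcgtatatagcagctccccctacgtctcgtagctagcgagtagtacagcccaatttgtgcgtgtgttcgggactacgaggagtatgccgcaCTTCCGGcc
Cox6a1: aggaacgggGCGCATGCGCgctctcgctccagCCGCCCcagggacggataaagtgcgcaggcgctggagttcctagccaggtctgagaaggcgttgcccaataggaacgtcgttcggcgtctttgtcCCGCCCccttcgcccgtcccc
Atp5e: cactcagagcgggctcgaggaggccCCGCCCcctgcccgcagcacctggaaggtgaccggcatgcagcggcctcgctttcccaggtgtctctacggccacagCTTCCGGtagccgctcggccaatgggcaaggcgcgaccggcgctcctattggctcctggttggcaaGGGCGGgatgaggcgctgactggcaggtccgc

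Of the known regulators, Gabpa mRNA stood at 23.8, 13.2 and 35.6 CPM in WT 1 to 3 and at 18.5, 22.5, 26.7 and 26.0 CPM in IL5-Tg 1 to 4. WT 2, highest for most members, was the lowest of the 7 libraries for Gabpa. Its log2 fold change was -0.05 (SE 0.35, adjusted p = 0.984), and 0.37 without WT 3. Gabpb1, which encodes the partner subunit of GABPA, had 25.7 to 42.3 CPM in WT and 17.3 to 21.5 CPM in IL5-Tg, groups that do not overlap, with a log2 fold change of -0.79 (SE 0.28, adjusted p = 0.407). Of the 15 tested genes in the list of mitochondrial gene regulators, 0 were called, and the median was -0.14 with 4 positive.

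In complex I, the NADH dehydrogenase and entry point for electrons from NADH, 34 of 35 genes were tested and 0 were called. The core subunits carry the cofactors and bind NADH, and the supernumerary subunits surround them. The 27 tested supernumerary subunits had a median log2 fold change of -0.19, with 6 positive.

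Ndufs1 encodes the largest core subunit, which holds several iron-sulfur clusters. Its level was 50.9, 46.1 and 38.9 CPM in WT 1 to 3 and 59.9, 54.5, 51.5 and 59.9 CPM in IL5-Tg 1 to 4. Every IL5-Tg library lay above every WT library, by a small margin between 50.9 and 51.5 CPM. The log2 fold change was 0.32 (SE 0.22, 95% interval -0.17 to 0.81, adjusted p = 0.782). Ndufv1, the subunit that binds NADH and FMN, had the largest positive estimate of the complex, 0.46 (SE 0.30), with 93.1, 188 and 102 CPM in WT and 204, 167, 193 and 140 CPM in IL5-Tg. Its groups overlapped, since WT 2 lay above IL5-Tg 2 and 4, and without WT 2 the estimate was 0.87.

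Among the supernumerary subunits, Ndufb3 had the lowest unadjusted p of the complex, 0.0910. Its level was 83.9, 85.8 and 109 CPM in WT and 61.2, 79.5, 73.9 and 64.7 CPM in IL5-Tg. Here all IL5-Tg libraries were below all WT libraries, and WT 3 rather than WT 2 was the highest. The estimate on the log2 scale was -0.41 (SE 0.22, 95% interval -0.90 to 0.08, adjusted p = 0.660). Ndufa6, a subunit near the ubiquinone-binding region, had 118, 158 and 119 CPM in WT and 109, 118, 79.4 and 94.7 CPM in IL5-Tg, and the gap between the groups was less than 1 CPM. Its log2 fold change was -0.40 (SE 0.24, adjusted p = 0.720). Ndufa7 had 106 to 127 CPM in WT and 91.7 to 104 CPM in IL5-Tg, a log2 fold change of -0.24 (SE 0.20, adjusted p = 0.837).

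Levels between genes were compared as CPM per kb of union exon length. On this scale Ndufa2 (300 CPM per kb), Ndufa13 (242) and Ndufa1 (230) led complex I, all supernumerary subunits with short coding regions. The order depended on the gene model, since Ndufb7 came first when the longest or the representative transcript was used. Ndufa13, also known as GRIM-19, had 218, 433 and 341 CPM in WT and 320, 276, 269 and 234 CPM in IL5-Tg. WT 1 was below and WT 2 and WT 3 were above all IL5-Tg libraries, and the log2 fold change was -0.27 (SE 0.27, adjusted p = 0.879). Ndufa1, needed to assemble the membrane arm, differed by -0.26 (SE 0.23, adjusted p = 0.852), and Ndufa2 by -0.42 (SE 0.26, adjusted p = 0.743).

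Ndufb4 had the lowest tested level of the complex, 4.38 CPM per kb. Its CPM was 15.8, 6.12 and 10.1 in WT and 8.34, 4.61, 4.96 and 6.59 in IL5-Tg, so only WT 2 fell within the IL5-Tg range. The fitted log2 fold change was -0.80 (SE 0.47, 95% interval -1.84 to 0.23, adjusted p = 0.711). Of the 42-base windows of its transcripts, 42 bases being the read length, 37.5% also occur in another gene, mostly in Ndufb4c. Ndufs5 had 0 counts in every library, which by a floor of 3 counts allows 0.156 to 0.317 CPM. A processed pseudogene row, BC002163, holds all of the 33.2% of Ndufs5 windows that are not unique and had 10 to 95 counts per library, and how reads common to both were counted is unknown. The 0 for Ndufs5 is therefore given as a listed value only.

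Complex II, succinate dehydrogenase, oxidises succinate in the citric acid cycle and delivers its electrons to ubiquinone. All 4 genes were tested and 0 were called, and this was the complex with a median near 0 (0.03). Sdha, the flavin-binding catalytic subunit, had 183, 260 and 190 CPM in WT and 307, 324, 267 and 245 CPM in IL5-Tg. The lowest IL5-Tg library lay below WT 2 alone. The log2 fold change was 0.44 (SE 0.24, 95% interval -0.09 to 0.96, unadjusted p = 0.0949, adjusted p = 0.670), the largest positive estimate among members with an interval inside 2-fold.

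The other 3 subunits were nearly level between the groups. Sdhb, the iron-sulfur subunit, had 164, 199 and 165 CPM in WT and 192, 174, 192 and 142 CPM in IL5-Tg, a log2 fold change of -0.01 (95% interval -0.50 to 0.49). Sdhc and Sdhd anchor the enzyme in the membrane. Sdhc differed by 0.06 (95% interval -0.49 to 0.61) and Sdhd by -0.0023 (95% interval -0.52 to 0.52). Per kb of union exon length the order was Sdhd (79.4), Sdhb (78.3), Sdha (60.3) and Sdhc (37.7 CPM per kb), and Sdhb came first with the longest transcript. The estimate for Sdha thus stood apart from those of its partners, although the difference between subunits was not tested.

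In complex III, the cytochrome bc1 complex, 10 of 10 genes were tested and 0 were called. Uqcr10, a small subunit, had the lowest unadjusted p of all 83 genes. It stood at 102, 137 and 85.4 CPM in WT and at 96.6, 67.3, 67.8 and 79.1 CPM in IL5-Tg. WT 1 and WT 2 were above all IL5-Tg libraries and WT 3 was within their range, and the log2 fold change was -0.47 (SE 0.25, 95% interval -1.03 to 0.08, adjusted p = 0.653). Uqcr11, another small subunit, differed by -0.41 (SE 0.24, adjusted p = 0.721).

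Uqcrc2, a core protein of the matrix side, had 132, 150 and 115 CPM in WT and 176, 171, 155 and 151 CPM in IL5-Tg. All IL5-Tg libraries were above all WT libraries, the closest being WT 2 at 150 and IL5-Tg 4 at 151 CPM. That is a log2 fold change of 0.30 (SE 0.21, 95% interval -0.17 to 0.78, adjusted p = 0.790). Its partner core protein Uqcrc1 had 258, 567 and 326 CPM in WT and 522, 418, 459 and 288 CPM in IL5-Tg, a log2 fold change of 0.14 (SE 0.32), or 0.55 without WT 2. Uqcrh, the hinge protein that docks cytochrome c1, was highest per kb (187 CPM per kb), followed by Uqcr10 (159) and Uqcr11 (127). Uqcrh differed by -0.20 (SE 0.25, adjusted p = 0.903).

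Cycs, which encodes cytochrome c, was the lowest gene counted with complex III, at 4.18 CPM per kb. Its CPM was 24.5, 12.2 and 10.4 in WT and 13.2, 10.5, 11.6 and 15.7 in IL5-Tg. WT 1 stood above all other libraries, and the remaining 6 lay close together. This gave a log2 fold change of -0.30 (SE 0.38, 95% interval -1.15 to 0.54, adjusted p = 0.906), and without WT 1 it was 0.18. A share of 29.6% of its 42-base windows also occurs in other genes, mostly in Gm10053, so some of its reads may have been left out or divided.

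Complex IV, cytochrome c oxidase, included the gene with the highest level per length of all 86 as well as genes at or near 0. Several of its subunits are known to have an isoform of muscle, lung or testis beside a widely expressed one. Of 20 genes, 18 were tested and 0 were called. Cox4i1 (515 CPM per kb), Cox6a1 (471) and Cox8a (437), all widely expressed isoforms, led the complex under each of the 3 gene lengths tried. Cox4i1, the regulatory subunit that binds ATP, had 635, 1062 and 692 CPM in WT and 904, 789, 786 and 718 CPM in IL5-Tg. WT 2 was the highest and WT 1 the lowest library, the groups overlapped fully, and the log2 fold change was 0.01 (SE 0.26, 95% interval -0.57 to 0.58).

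Cox6c, a small membrane subunit, had the lowest unadjusted p of the complex, 0.0973. It had 218, 132 and 89.6 CPM in WT and 84.9, 93.7, 88.6 and 128 CPM in IL5-Tg. WT 1 stood far above the rest, and without it the log2 fold change went from -0.57 (SE 0.31, adjusted p = 0.670) to -0.16. Cox7b (126, 57.0 and 62.2 CPM in WT) and Ndufa4 (181, 108 and 92.8 CPM) were likewise highest in WT 1. Their log2 fold changes went from -0.49 to -0.02 and from -0.36 to -0.01 without that library. Cox7c differed by -0.41 (SE 0.25, adjusted p = 0.724), and 53.7% of its windows also occur in other genes.

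Cox7a2 was the complex IV gene whose groups did not overlap. Its level was 169, 148 and 141 CPM in WT and 131, 135, 125 and 112 CPM in IL5-Tg. The log2 fold change was -0.28 (SE 0.21, 95% interval -0.74 to 0.18, adjusted p = 0.797). Cox7a2l, a factor that links complexes III and IV into supercomplexes, varied little, with 117, 124 and 131 CPM in WT beside 121, 122, 103 and 119 CPM in IL5-Tg, a log2 fold change of -0.09 (SE 0.20). Cox6a1 stood at 324, 438 and 282 CPM in WT and at 340, 328, 341 and 245 CPM in IL5-Tg, where IL5-Tg 4 was apart from the other 3.

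The tissue-restricted isoforms were low in all libraries. Cox7a1, the heart and muscle isoform of subunit VIIa, was the most abundant at 19.8 CPM per kb, against 147 CPM per kb for Cox7a2. Its CPM was 10.4, 14.6 and 9.92 in WT and 8.06, 11.9, 10.3 and 7.74 in IL5-Tg, and the log2 ratio of Cox7a1 to Cox7a2 differed by 0.02 between groups. Cox6a2, the muscle isoform of subunit VIa, had 1.69, 7.18 and 2.27 CPM in WT and 3.75, 1.84, 4.08 and 4.93 CPM in IL5-Tg, highest in WT 2. Cox8b, the muscle isoform of subunit VIII, had 1.63, 2.43 and 7.94 CPM in WT and 0.750, 0, 0.875 and 1.92 CPM in IL5-Tg. WT 3, the library with the smallest sum of muscle fibre markers, thus had the most Cox8b, and the log2 fold change of -2.15 carried an interval from -4.77 to 0.48 (adjusted p = 0.674).

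Ndufa4l2, the paralogue known to be induced under low oxygen, had 4.23, 5.60 and 0 CPM in WT and 7.12, 3.07, 8.45 and 7.53 CPM in IL5-Tg. IL5-Tg 2 lay within the WT range and the other 3 above it. The fitted log2 fold change was 0.996 (SE 1.05, 95% interval -1.33 to 3.33, adjusted p = 0.886). Cox4i2, an isoform known from lung, stayed at or under 1.38 CPM in every library, and Cox6b2, known from testis, at or under 2.64 CPM. Cox7b2 and Cox8c, also known from testis, had 0 counts in all 7 libraries, with the same floor as Ndufs5.

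Isoform use was compared as log2((CPM + 1) of the isoform over (CPM + 1) of its partner) and tested by exact permutation of the genotype labels (two-sided, 35 arrangements, smallest possible p 0.0286), with p-values adjusted over the 6 ratios. Ndufa4l2 over Ndufa4 had the largest difference, with WT at -5.24 ± 1.26 (SD, n = 3) and IL5-Tg at -3.79 ± 0.573 (SD, n = 4) (exact p = 0.0857, adjusted p = 0.457). Cox8b over Cox8a was -6.03 ± 1.22 in WT and -7.16 ± 0.764 in IL5-Tg (exact p = 0.229, adjusted p = 0.457). Cox4i2 over Cox4i1 differed by 0.26 and Cox6a2 over Cox6a1 by 0.25 (adjusted exact p = 0.686 for each), and Cox7a1 over Cox7a2 by 0.02 (adjusted exact p = 0.914). Atp5g1 over Atp5g2, genes for the same c ring protein of complex V, differed by -0.29 (adjusted exact p = 0.457). A single ratio at the smallest possible p would have an adjusted p of 0.171, so the adjusted values could not pass for 1 ratio alone and do not show that the ratios were alike. In every library the widely expressed gene of the 5 complex IV ratios stood above its isoform.

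**Figure D4:**
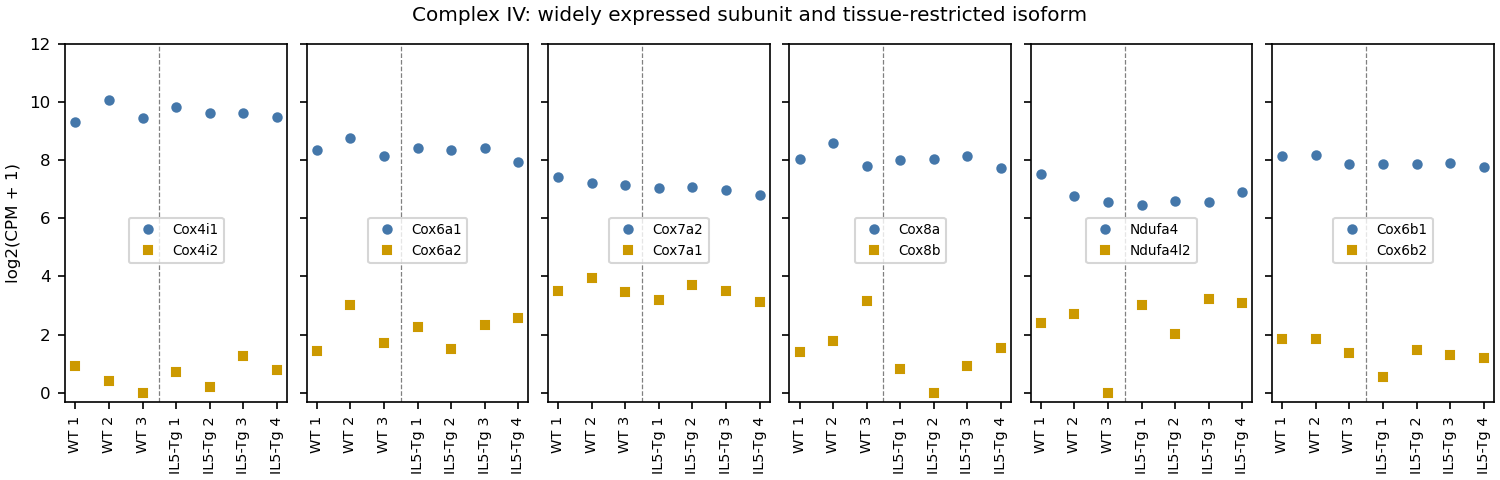
Log2(CPM + 1) in each library of the widely expressed gene (blue circles) and the tissue-restricted isoform or paralogue (yellow squares) for 6 pairs of complex IV, with WT left and IL5-Tg right of the dashed line. The circles lie above the squares in every library; Cox4i2 and Ndufa4l2 are at 0 in WT 3 and Cox8b is at 0 in IL5-Tg 2.

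Complex V, ATP synthase, was the complex with the highest median level, 107 CPM per kb against 63.8 to 69.5 in the other complexes, and 17 of 17 genes were tested with 0 called. These medians depend on which genes the symbol rule admits. That of complex IV, 69.5, included Cox4i2, Cox6a2, Cox6b2, Cox7a1, Cox8b and Ndufa4l2, at 0.722 to 19.8 CPM per kb, and would be higher without them. That of complex V included Atp5s and Atp5sl, at 1.32 and 4.19 CPM per kb. Atp5a1 and Atp5b encode the alpha and beta subunits that form the catalytic head. Atp5b had 728, 1334 and 919 CPM in WT and 1069, 1042, 1090 and 914 CPM in IL5-Tg. Atp5a1 had 593, 1100 and 595 CPM in WT and 1023, 899, 963 and 792 CPM in IL5-Tg. In both genes WT 2 was the highest and WT 1 the lowest library. Their log2 fold changes were 0.05 (SE 0.26, 95% interval -0.54 to 0.64) and 0.27 (SE 0.29, 95% interval -0.36 to 0.90). Without WT 2 they were 0.34 (adjusted p = 0.518) and 0.65 (adjusted p = 0.220).

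Atp5c1, the gamma subunit that turns inside the head, was the complex V gene whose groups did not overlap. It had 238, 335 and 240 CPM in WT and 224, 218, 233 and 228 CPM in IL5-Tg. The IL5-Tg libraries lay close together and just under WT 1. As a log2 fold change this was -0.26 (SE 0.22, 95% interval -0.76 to 0.23, adjusted p = 0.837). The 5 head genes (Atp5a1, Atp5b, Atp5c1, Atp5d and Atp5e) had a median log2 fold change of -0.03, and the other 12 genes -0.14.

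Of the stalk and membrane subunits, Atp5k, Atp5j and Atp5j2 were among those with the smallest p. Atp5k, a small subunit that supports dimers of the enzyme, had 119, 189 and 72.9 CPM in WT and 84.4, 91.6, 94.0 and 82.4 CPM in IL5-Tg. WT 1 and WT 2 were above and WT 3 below all IL5-Tg libraries, and the log2 fold change was -0.53 (SE 0.30, 95% interval -1.20 to 0.15, adjusted p = 0.706). Atp5j2, the f subunit, differed by -0.36 (SE 0.26, adjusted p = 0.790). Atp5j, coupling factor 6, differed by -0.35 (SE 0.27, adjusted p = 0.812), and by -0.01 without WT 1. Atp5f1, the b subunit of the stalk, was steady in IL5-Tg at 215 to 222 CPM and had 312, 218 and 217 CPM in WT.

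Several complex V genes share sequence with other genes. Among 42-base windows, 87.5% for Atp5g2, 85.1% for Atp5l, 65.2% for Atp5o and 54.5% for Atp5h also occur in other genes, mostly in Gm10175, Gm10221, Donson and Gm10250. The sources used here do not say how reads with more than 1 origin were counted, which leaves the levels of these genes uncertain. Atp5o, the stalk subunit known for conferring oligomycin sensitivity, was the highest of the complex at 466 CPM per kb of union exon length, and was the third with either transcript length. The gene model used for it, chr16:91684398-91926982 (minus), does not reach the RefSeq bases before its start, at chr16:91931631-91931880. Its level per kb and its share of common windows therefore rest on a model that may not be the right one. It had 199, 388 and 157 CPM in WT and 288, 219, 274 and 202 CPM in IL5-Tg, a log2 fold change of -0.01 (SE 0.32). Atp5s, the lowest gene of the complex, had 1.27 to 6.28 CPM in WT and 1.31 to 2.28 CPM in IL5-Tg.

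The members' fold changes ran with transcript length. The 29 members with a representative transcript of at most 0.659 kb had a median log2 fold change of -0.26, with 2 positive. The 26 of intermediate length had -0.08, with 8 positive, and the 28 above 1.13 kb had 0.02, with 14 positive. Over the 83 genes Pearson's r between the log2 fold change and log2 length was 0.38 and Spearman's rho 0.47, a description across genes that share the same 7 libraries. Over all tested genes with a model the correlations were 0.03 and 0.0028, but within the same length bounds the medians were -0.35 for 215 genes, -0.07 for 848 and 0.05 for 11295. The 215 short genes, which include the 29 short members, thus had a median of the same sign as those members. The part of length in the members' values was not tested beyond the correction given above.

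**Figure D5:**
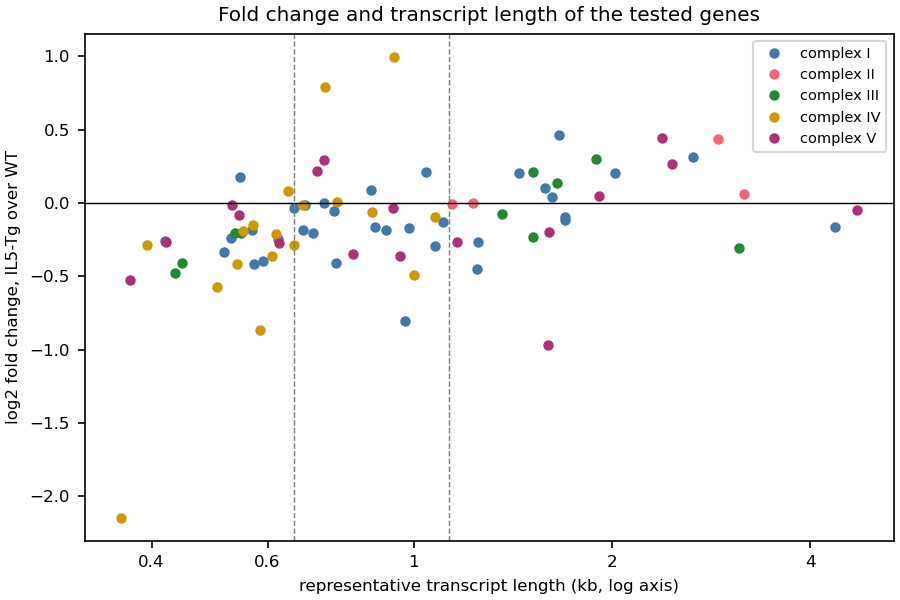
Log2 fold change (IL5-Tg over WT) of the 83 tested genes against the length of the representative transcript in kb on a log axis, with 1 point per gene coloured by complex and dashed lines at 0.659 and 1.13 kb. Left of the first line 2 of 29 points lie above 0, and right of the second 14 of 28 do.

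GC content ran with the deviations in opposite ways in libraries of both groups. Across the 83 genes the deviation fell with GC content in WT 1 (Pearson's r = -0.54) and IL5-Tg 4 (-0.33), and rose with it in WT 2 (0.49), IL5-Tg 3 (0.34) and IL5-Tg 1 (0.23). In WT 3 and IL5-Tg 2 the correlations were 0.03 and 0.04. Across all tested genes they were -0.42, 0.31 and -0.17 in WT 1 to 3, and 0.38, 0.18, 0.20 and -0.24 in IL5-Tg 1 to 4. The 28 members of lowest GC content, at most 49.2%, had a median deviation of 0.44 in WT 1 and 0.14 in WT 2. The 28 of highest GC content, above 54.7%, had -0.07 and 0.50. Cycs (40.83% GC) and Cox6c (48.71%) were among the members highest in WT 1. Uqcrc1 (57.53%) was among those highest in WT 2, and so was Atp5a1, of intermediate GC content (50.55%). The part of GC content in these values was not tested beyond the correction by library trends.

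Genes that build or feed the respiratory chain were described from lists beside the members. Of 45 tested assembly factors 0 were called, with a median log2 fold change of 0.07. Pet100, an assembly factor of complex IV, had the lowest unadjusted p of that list, with 56.5, 66.1 and 41.4 CPM in WT and 25.4, 30.8, 29.9 and 30.6 CPM in IL5-Tg. Its groups did not overlap, and the log2 fold change was -0.90 (SE 0.25, unadjusted p = 0.00407, adjusted p = 0.231). Cox16, another complex IV assembly factor, had 17.5 to 21.6 CPM in WT and 11.5 to 12.4 CPM in IL5-Tg (log2 fold change -0.72, SE 0.28, adjusted p = 0.481).

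For the pathways that supply electrons, 0 of 13 citric acid cycle genes were called (median 0.05), 0 of 12 genes of pyruvate entry (0.25) and 0 of 15 genes of fatty acid oxidation (0.28). Pdk1, a kinase that restrains pyruvate dehydrogenase, had 9.29 to 11.9 CPM in WT and 17.6 to 21.1 CPM in IL5-Tg, a log2 fold change of 0.83 (SE 0.29, adjusted p = 0.414). Pdk3, of the same family, had 17.0, 26.1 and 46.4 CPM in WT and 55.5, 60.8, 67.8 and 45.2 CPM in IL5-Tg, a log2 fold change of 0.94 (SE 0.34, adjusted p = 0.440), or 1.43 without WT 3. Among mitochondrial carriers and uncoupling proteins 0 of 11 were called (median 0.09), and among import genes 0 of 22 (-0.07). The mitochondrial ribosomal protein genes, 0 of 77 called, had a median of 0.03, and the cytosolic ones, 0 of 83 called, -0.27.

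Of 18 tested glycolysis enzymes 2 rose in IL5-Tg and 0 fell, with a list median of 0.63 and 16 positive. Over all genes tested 0.338% were called higher and 0.0724% lower. The list summed to 8227, 16774 and 15275 CPM in WT 1 to 3. In IL5-Tg 1 to 4 it summed to 22161, 23157, 18220 and 13732 CPM. WT 1 was thus the lowest library, and IL5-Tg 4 lay below WT 2 and WT 3. Aldoc, an aldolase, rose by 2.75 on the log2 scale (SE 0.43, adjusted p = 0.0268), from 2.46 to 6.12 CPM in WT to 18.2 to 37.4 CPM in IL5-Tg. Pgam1, phosphoglycerate mutase, rose by 1.32 (SE 0.23, adjusted p = 0.0424), from 29.4 to 34.5 CPM to 67.6 to 92.9 CPM. Both calls were lost in several alternatives. The adjusted p was 0.247 for Aldoc and 0.0943 for Pgam1 with limma-voom, and 0.0802 and 0.454 with the first digits of the titles as a block. With a library left out it went up to 0.143 for Aldoc without WT 1 and up to 0.244 for Pgam1 without IL5-Tg 1. Marker lists of cell types moved in both directions. Eosinophil markers had a median of 0.60, with 8 of 11 positive and 3 of 11 called higher, against 0.338% of all genes. The 3 called were Ear6, Ear1 and Prg2. Siglecf (log2 fold change 0.43) and Ccr3 (-0.59), of the same list, were not called. For muscle fibre markers 14 of 15 tested were positive (median 0.81), and for fibroblast markers 9 of 9 (0.63), with 0 called in either list. The medians were 0.42 for muscle progenitor, 0.29 for endothelial and 0.25 for macrophage and monocyte markers. They were negative for neutrophil (-1.58, 1 called higher and 1 lower), mast cell and basophil (-2.29, 1 called lower), and lymphoid and NK markers (-0.66). The part of any of these cells in the glycolysis values was not tested. No test compared the glycolysis list with the oxidative phosphorylation genes.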

How the data were processed

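The data are raw read counts per gene symbol for 7 libraries, deposited by the authors as whole numbers without normalization, as seen from their differing totals. A stranded mRNA kit and paired 42-base reads were used, per the labels' protocols. The submitters' processing notes list bcl2fastq 2.20, Bowtie, STAR and the mm10 build. Not given in the sources used here are the roles of these tools, the counting program, its annotation and its strand mode. Reads shared by overlapping, antisense or near-identical genes may therefore be split in an unknown way.

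Total counts were 11581365 to 20231509 per library. The 2 rows that name no gene were left out. The no feature row took 15.6% to 18.2% in WT and 9.15% to 13.0% in IL5-Tg, and the ambiguous row 0.750% to 0.943%. Genes with a count numbered 13813, 12759 and 10877 in WT 1 to 3, and 13641 to 14391 in IL5-Tg. The most common low count was 5, 8 and 12 in WT 1 to 3, and 3 to 4 in IL5-Tg. The floor of 3 counts thus lies below the usual low count of the WT libraries. The part of these differences in the members' values was not tested. Counts of libraries in a group differed beyond counting noise (chi-square per gene 26.0 to 149), so none was taken for a repeat deposit of another, which does not show that they are independent samples. Floors from counts cover counting error only. The intervals of the fold changes come from the edgeR fit and also take in the spread between libraries.

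The test was edgeR 4.0.16 (R 4.3.3) quasi-likelihood with TMM, filterByExpr, robust estimation and genotype as the only term. It was fitted on 12428 genes, and a gene was called at a Benjamini-Hochberg adjusted p under 0.05. Positive log2 fold changes mark genes higher in IL5-Tg. The F statistic and the fold change gave the standard errors. The procedure was tested on simulated data. Gene lengths, GC content and 42-base windows came from GENCODE vM21 (mm10), which had a model for 86 of 86 members, and promoters from RefSeq (70 of 86 matched, 3 by another name). Alternatives used DESeq2 1.42.0, limma 3.58.1, other normalizations, filters and lengths, a block, and each library left out. Removal of GC content and length trends and the representative transcript were added after seeing the data.

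The members, lists and tests were chosen with earlier results of these data known. Genes were named by rule: Il5; in each complex the 3 highest per kb, the 3 with the smallest p and the lowest; tissue-restricted isoforms and partners; members whose groups do not overlap; members left out by the filter; and from other lists the called genes or the 2 with the smallest p. Ndufv1, Uqcrc1, Cox7a2l, Atp5f1, Gabpa and BC002163 were added after their values were seen, and not all genes the rule names in other lists are printed. The values of 1 member are not reported here on their own.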

Additional observations from a re-analysis of the deposited data

Results flagged for a closer look

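Of 44 values checked among the 4 IL5-Tg libraries (Il5 and the named members), 1 had a library far from the others: Cox6a1 stood at 245 CPM in IL5-Tg 4, and the nearest other IL5-Tg library had 328 CPM. The gap was 0.873 of the group's whole range, above Dixon's 95% critical value for 4 samples. The 44 values include Ndufs5, Cox7b2 and Cox8c, which had 0 counts in every library and could not be flagged. Chance flags about 1 in 20 groups, so 1 flag among the rest is no more than that. The 3 WT libraries were too few for this check.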

How the results depend on the processing

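No member was called in the main test or in any of the 20 alternative fits. The count of calls over all genes moved more, from 51 to 225 with DESeq2, 22 with limma-voom, 97 with the newer edgeR fit, 92 with counts divided by each library's most common low count, and 16 to 97 when 1 library was left out (19 without WT 1, 61 without WT 2, 97 without WT 3, 16, 16, 17 and 30 without IL5-Tg 1, 2, 3 and 4). The median log2 fold change of the members ranged from -0.32, with the first digits of the sample titles as a block, to 0.04. Without WT 2 10 of 83 members had an unadjusted p under 0.05, beside 18.1% of all genes in that fit, and without WT 3 there were 7 of 83 (8.43%), beside 8.83% of all genes. Members with an interval inside 2-fold numbered 49 to 59 when a library was left out, and 22 with that block. No paired analysis was possible because the labels name no pairs: they give no replicate numbers and do not explain the title digits. The block on those digits, shared by WT 1 with IL5-Tg 3 and by WT 2 with IL5-Tg 4, is therefore an alternative of unknown meaning, and it called 52 genes in all. With 1 library left out, the difference between groups (IL5-Tg minus WT) in the log2 ratio of Cox6a2 to Cox6a1 ranged from -0.026 to 0.56, and that in the log2 ratio of Cox7a1 to Cox7a2 from -0.12 to 0.19. The former turned to -0.026 without WT 1. The latter turned to -0.12 without WT 1, -0.025 without WT 3, -0.055 without IL5-Tg 2 and -0.028 without IL5-Tg 3. Median levels for complexes I to V were 94.6, 82.6, 88.6, 136 and 231 CPM per kb with the longest transcript, and 112, 82.6, 88.6, 149 and 252 with the representative transcript, against 63.8, 69.3, 68.0, 69.5 and 107 with union exons. Of 1045 values for named genes under alternatives, 984 kept their side of the threshold and moved little, 43 moved, 18 lost a call and 0 turned against a call; 67 had the other sign without a call. The lost calls were those of Aldoc, Pgam1 and Il5, whose adjusted p was 0.0541, 0.0504 and 0.0533 without IL5-Tg 1, 2 and 3. The causes of these changes were not tested. Depth limits the values of Cox4i2, Cox8b and Ndufa4l2, each with 0 counts in 1 library.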

Other observations

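The symbol rule leaves out a few other nuclear genes of the same complexes, and 3 of them were looked at after the data had been seen. Usmg5, a small membrane subunit of ATP synthase, had 130, 67.9 and 53.5 CPM in WT and 41.5, 46.2, 43.4 and 46.7 CPM in IL5-Tg. All IL5-Tg libraries were below all WT libraries, WT 1 was the highest, and the log2 fold change was -0.92 (SE 0.30, unadjusted p = 0.0127, adjusted p = 0.381). Ndufab1, the acyl carrier protein that is also a subunit of complex I, had 3.59 to 7.31 CPM in WT and 4.92 to 10.4 CPM in IL5-Tg, a log2 fold change of 0.44 (SE 0.49, adjusted p = 0.894). Atpif1, which encodes the inhibitor of ATP synthase, had 72.7 to 136 CPM in WT and 87.7 to 133 CPM in IL5-Tg, a log2 fold change of 0.09 (SE 0.28, adjusted p = 0.960). None of the 3 passed the test.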
